A study of Mus musculus with 30 samples.

Results

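Messenger RNA of 9 membrane transporters of organic anions and dicarboxylates was followed in mouse liver. The 9 were chosen by gene symbol: the organic anion transporting polypeptides *Slco1a1*, *Slco1a4*, *Slco1b2* and *Slco2b1*, the organic anion carrier *Slc22a7*, the dicarboxylate carrier *Slc13a3*, and the ATP-driven export pumps *Abcc2*, *Abcc3* and *Abcc4*. All 9 were found, among 54429 genes in the time-course table and 55471 genes in the genotype table.

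Hepatocytes clear bile acids, bilirubin, steroid conjugates, drugs and metabolic intermediates from portal blood. Uptake carriers of the Slco and Slc22 families lie in the sinusoidal membrane that faces the blood, and Abcc pumps send conjugated products either across the canalicular membrane into bile or back across the basolateral membrane into blood. Several of these transporters are known to differ between male and female mouse liver, between the periportal and pericentral ends of the lobule, and with inflammation.

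RNA-seq counts came from 30 liver libraries in a pair of cohorts. The time course held C57BL/6J male mice on chow in a 12 h light and 12 h dark cycle, aged 2, 6 or 12 months, with 1 library at each of ZT1, 5, 9, 13, 17 and 21 per age (ZT, hours after lights on). The genotype cohort compared liver-specific *Egr-1* knockout (KO) mice, homozygous for a floxed *Egr-1* allele and carrying *Alb-Cre*, with littermate controls (WT), in 6 pairs: 1 pair at each of 2, 6 and 12 months at the hour of highest (H) and of lowest (L) Egr-1 protein. *Egr-1* encodes an immediate-early zinc-finger transcription factor. *Alb-Cre* acts in albumin-expressing cells, so other liver cells of the KO keep the gene, and the knockout lines, of another strain, had been backcrossed to C57BL/6 J, the background of the floxed mice. The H and L hours were ZT13 and ZT17 at 2 months, ZT9 and ZT21 at 6 months, and ZT5 and ZT21 at 12 months, so age and hour cannot be told apart within H or between 2 months and the older ages within L, where only the 6-month and 12-month pairs share an hour. The study's captions speak of several mice per group in the knockout RNA-seq, while 1 library per genotype, age and collection was analysed here. How mice map to libraries, or whether livers were pooled, is not given in the sources used here, and p-values below measure the spread between libraries.

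Total counts ran from 13375377 to 16557378 per library in the time course and from 13747706 to 21748956 in the genotype cohort. Levels are given as CPM, read counts scaled to library depth with TMM factors, and as FPKM, which also divides by exon length, where genes are compared with each other. All 8 hepatocyte markers were present in every group, and 5 of 7 kidney tubule markers were at 0 in every library of the genotype cohort. *Egr-1* itself ranged from 1.45 to 72.4 CPM in WT and from 1.53 to 7.43 CPM in KO. The KO library was the lower one in 4 of 6 pairs: in the 2-month L pair KO stood at 7.43 against 1.45 CPM, and in the 12-month H pair at 6.11 against 5.83 CPM. The fitted difference for *Egr-1* was -1.76 ± 0.79 (log2, SE; edgeR, Benjamini-Hochberg adjusted p = 0.324), so the genotype fit of the 9 transporters was also computed without those 2 pairs.

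The genes lie on 7 chromosomes (GRCm38, the build behind the mm10 label of the processing notes, with GENCODE M21 gene models). *Slco1a1*, *Slco1a4* and *Slco1b2* are neighbours on chromosome 6. *Slco1b2* (ENSMUSG00000030236) lies at chr6:141629518-141686646 on the plus strand, *Slco1a4* (ENSMUSG00000030237) at chr6:141805440-141856199 on the minus strand, and *Slco1a1* (ENSMUSG00000041698) at chr6:141907282-141946962 on the minus strand. *Slco1a1* and *Slco1a4* are close paralogs, and reads from similar exons could have been split between them or dropped. *Slco2b1* (ENSMUSG00000030737) lies at chr7:99657804-99711340 on the minus strand, and its exons overlap the antisense genes *Gm15635* and *Gm34280*, whose reads cannot be told from its own because the strand setting of the counting is not given in the sources used here. *Slc22a7* (ENSMUSG00000067144) lies at chr17:46432183-46438457 on the minus strand and *Slc13a3* (ENSMUSG00000018459) at chr2:165405028-165473230 on the minus strand. Of the pumps, *Abcc2* (ENSMUSG00000025194) lies at chr19:43782192-43840740 on the plus strand, *Abcc3* (ENSMUSG00000020865) at chr11:94343295-94392997 on the minus strand and *Abcc4* (ENSMUSG00000032849) at chr14:118482692-118706219 on the minus strand.

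RefSeq promoter windows (GRCm38.p6, 250 bases before to 50 after the transcription start, gene strand) matched 7 of the 9 genes. They are printed for the 3 genes called between genotypes and for *Abcc2* and *Abcc4*, 2 genes called for a daily rhythm, because both results concern DNA-binding transcription factors. Each window was searched on both strands for an Egr-1 site (GCGTGGGCG or GCGGGGGCG), the clock E-box (CACGTG) and the D-box (TTATGTAA or TTACGTAA), none of which overlapped in these windows, and capitals mark the matches. The windows are *Slc13a3*, chr2:165473148-165473447; *Slco1a4*, chr6:141856171-141856470; *Slco1a1*, chr6:141946913-141947212; and *Abcc4* (the first of its start sites), chr14:118706170-118706469, all minus strand, and *Abcc2*, chr19:43782058-43782357, plus strand.
Slc13a3: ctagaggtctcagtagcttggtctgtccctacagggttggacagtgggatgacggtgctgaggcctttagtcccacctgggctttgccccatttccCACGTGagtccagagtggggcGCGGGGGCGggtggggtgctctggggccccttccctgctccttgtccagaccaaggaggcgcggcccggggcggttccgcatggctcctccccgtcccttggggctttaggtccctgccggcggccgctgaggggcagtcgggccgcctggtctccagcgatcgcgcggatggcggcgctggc
Slco1a4: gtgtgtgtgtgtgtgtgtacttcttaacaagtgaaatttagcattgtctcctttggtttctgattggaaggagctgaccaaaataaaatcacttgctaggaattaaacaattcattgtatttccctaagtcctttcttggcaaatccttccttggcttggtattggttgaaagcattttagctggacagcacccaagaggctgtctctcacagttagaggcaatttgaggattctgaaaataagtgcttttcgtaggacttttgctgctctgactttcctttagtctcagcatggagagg
Slco1a1: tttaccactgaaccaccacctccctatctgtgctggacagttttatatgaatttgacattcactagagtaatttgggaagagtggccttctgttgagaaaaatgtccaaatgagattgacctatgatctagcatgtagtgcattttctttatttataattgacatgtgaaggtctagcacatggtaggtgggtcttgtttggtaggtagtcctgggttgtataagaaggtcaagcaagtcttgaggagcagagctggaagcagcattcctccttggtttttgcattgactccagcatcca
Abcc4: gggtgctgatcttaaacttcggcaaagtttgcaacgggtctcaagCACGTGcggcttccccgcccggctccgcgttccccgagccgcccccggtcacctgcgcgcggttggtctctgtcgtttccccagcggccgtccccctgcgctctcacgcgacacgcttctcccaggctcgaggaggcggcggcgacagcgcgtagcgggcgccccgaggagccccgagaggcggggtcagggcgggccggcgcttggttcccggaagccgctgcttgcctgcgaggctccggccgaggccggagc
Abcc2: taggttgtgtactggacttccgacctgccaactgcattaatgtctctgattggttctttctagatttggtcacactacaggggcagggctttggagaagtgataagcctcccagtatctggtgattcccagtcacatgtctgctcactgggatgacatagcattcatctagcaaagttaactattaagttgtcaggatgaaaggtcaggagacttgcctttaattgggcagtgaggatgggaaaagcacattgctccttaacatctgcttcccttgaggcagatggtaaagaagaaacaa

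The *Slc13a3* window held an Egr-1 match that began 133 bases before the start and an E-box that began 154 bases before it. An E-box began 205 bases before the first *Abcc4* start. No searched letters were found in the *Slco1a4*, *Slco1a1* or *Abcc2* windows. Nor were any found in the windows that are not printed, those of *Slco1b2*, of *Slco2b1* and of the other *Abcc4* start. *Slc22a7* and *Abcc3* had no window to search. Across all 32851 promoter windows of the same length, 3.47% held the Egr-1 letters, 7.15% the E-box and 1.06% the D-box. The *Slc13a3* and *Abcc4* windows were GC-rich (69.3% and 72.7%, against a median of 52.7% over all windows), and the *Slco1a1*, *Slco1a4* and *Abcc2* windows lay between 40.7% and 45.0%. A match of letters is a description of the window and shows no binding.

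The 9 transporters covered a wide span of abundance. At 2 months in the time course, *Slco1b2*, a liver-specific uptake carrier for bile acids and bilirubin conjugates, stood at 364 ± 134 FPKM (SD, n = 6) and *Slco1a1*, a male-predominant uptake carrier for bile acids and steroid conjugates, at 199 ± 34.0. These 2 overlapped each other and stood above the rest. *Abcc2*, the canalicular pump for bilirubin glucuronides and other conjugates, was at 31.8 ± 8.23 FPKM and *Slc22a7*, a sinusoidal carrier of small organic anions, at 24.95 ± 3.67, again with overlapping libraries. *Abcc3*, a basolateral pump for glucuronides, was at 14.4 ± 3.01 FPKM and overlapped *Slco2b1*, an uptake carrier for steroid sulfates, at 12.1 ± 0.906. *Slco1a4*, an uptake carrier with a wide range of bile acid and drug substrates, was at 5.24 ± 1.72 FPKM. *Slc13a3*, a sodium-coupled carrier of succinate and other dicarboxylates that is best known from kidney, was at 0.811 ± 0.12 FPKM, and *Abcc4*, a basolateral pump for bile acids and cyclic nucleotides, at 0.317 ± 0.0955, each apart from its neighbour in the order.

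WT livers of the genotype cohort kept *Slco1b2* (162 ± 19.8 FPKM, SD, n = 6) and *Slco1a1* (90.2 ± 26.4) at the top and *Slco1a4* (4.30 ± 0.975), *Slc13a3* (1.56 ± 0.275) and *Abcc4* (0.476 ± 0.195) at the bottom. In the middle, *Abcc3* (35.3 ± 6.10) stood beside *Abcc2* (31.7 ± 4.86), followed by *Slco2b1* (17 ± 2.1) and *Slc22a7* (13.2 ± 6.44). The cohorts were counted and scaled separately and come from different mouse lines, so no test was made between them.

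**Figure D1:**
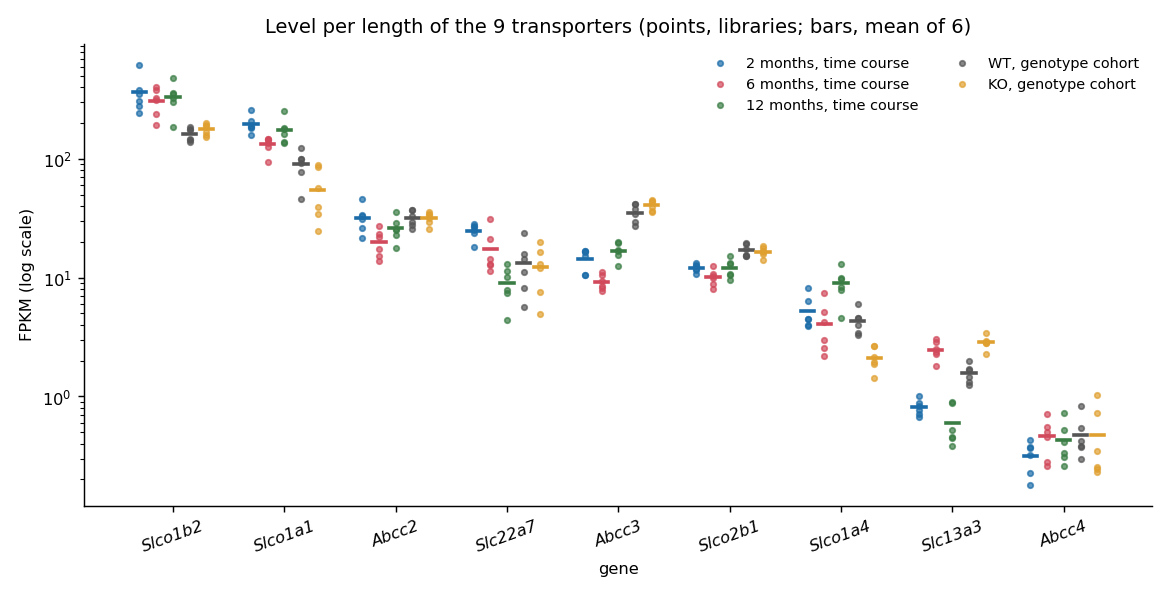
FPKM (log axis) of the 9 transporters in each library of the time course (2, 6 and 12 months) and of the genotype cohort (WT and KO). Each point is 1 library; bars mark the mean of 6. *Slco1b2* lies highest and *Abcc4* lowest in every group.

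KO libraries held less *Slco1a4* and *Slco1a1* and more *Slc13a3* than the WT libraries they were paired with. These 3 of 9 transporters passed an adjusted p of 0.05 in edgeR's quasi-likelihood test with the pair as a block, against 1.36% of the 14843 genes tested (0.721% lower in KO, 0.64% higher). The 9 were listed with earlier results of these data known, so these shares stand side by side and test no enrichment. The median log2 difference of the 9 was -0.16, beside -0.01 over all genes. The other 6 did not pass, and their fitted differences lay between -0.29 and 0.09. In bulk liver, fewer cells of a type and less RNA per cell cannot be told apart.

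*Slco1a4* stood in WT at 30, 22.9, 31.9, 22.6, 25.5 and 39.6 CPM (2-month H and L, 6-month H and L, 12-month H and L) and in KO, in the same order, at 14.1, 11.6, 8.89, 16.5, 15.5 and 11.4 CPM. The highest KO library lay below the lowest WT library, and KO was lower in 6 of 6 pairs. The difference was -1.15 ± 0.18 (log2, SE; adjusted p = 0.0173), a fold of 0.452, and it kept its direction when any pair was left out, with an adjusted p of 0.0547 without the 12-month L pair.

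*Slco1a1* stood in WT at 501, 719, 580, 536, 243 and 423 CPM and in KO at 462, 290, 456, 203, 119 and 166 CPM, in the same order. KO was lower in 6 of 6 pairs, but the groups overlapped because the 12-month WT libraries lay below the H libraries of KO at 2 and 6 months. The fitted difference was -0.93 ± 0.17 (log2, SE, adjusted p = 0.0373), and the mean of the 6 pair differences gave a fold of 0.527. The call was lost when the 2-month L (adjusted p = 0.0836), 6-month L (0.0763), 12-month H (0.0963) or 12-month L pair (0.121) was left out, and without the block (0.400 with genotype alone and 0.128 with age and collection as terms). Within the H pairs the difference was -0.50, and the interaction of genotype with collection was -0.86 ± 0.22 (log2, SE; adjusted p = 0.669), with the larger fall at L; 0.00674% of genes passed that test.

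*Slc13a3* moved the other way. WT libraries stood at 9.06, 7.50, 7.07, 10.6, 8.64 and 7.93 CPM and KO libraries at 15.1, 17.1, 14.4, 11.7, 14.0 and 13.5 CPM. The lowest KO library, from the 6-month L pair, lay above the highest WT library, which came from the same pair. The fitted difference was 0.75 ± 0.12 (log2, SE, adjusted p = 0.0233), and the mean of the 6 pair differences gave a fold of 1.70. Leaving out any pair other than 6-month L moved the adjusted p to between 0.0502 and 0.0793 at 0.68 to 0.77 log2. The study named *Slc13a3* from these same libraries, so its call here is not independent evidence. Its promoter is the one printed above with an Egr-1 match.

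The remaining 6 transporters did not pass. *Slco2b1* ran from 95.1 to 120 CPM in WT (median 103) and from 81.7 to 104 in KO (median 97.2), lower in 6 of 6 pairs with overlapping groups and a difference of -0.16 ± 0.058 (log2, SE; adjusted p = 0.232). *Slc22a7* ran from 12.4 to 51.1 CPM in WT and from 9.48 to 40.8 in KO, with 3 pairs lower and 3 higher (-0.21, adjusted p = 0.669). *Slco1b2*, the most abundant of the 9, ran from 704 to 995 CPM in WT and from 754 to 919 in KO (0.01, adjusted p = 0.962). The pumps gave -0.12 for *Abcc2* (adjusted p = 0.520), 0.09 for *Abcc3* (0.630) and -0.29 for *Abcc4* (0.599), the last from 27 to 109 counts per library. These p-values do not show that the 6 were equal in WT and KO.

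Read pair by pair, *Slco1a1*, *Slco1a4* and *Slco2b1* were lower in KO in all 6 pairs, as were 4.79% of 12707 genes of at least 1 CPM on average, and *Slc13a3* was higher in all 6, as were 5.33%. With all 6 differences of the same sign, the exact sign-flip permutation test must give its smallest value, p = 0.03125 (two-sided). It gave that for each of the 4 genes and so adds nothing to these counts. WT and KO libraries did not overlap for *Slco1a4* and *Slc13a3*, 2 of the 9, against 0.952% of those genes. Without the 2 pairs in which KO did not hold less *Egr-1*, 0 of the 9 passed in edgeR and 9 genes in all did, with differences of -1.29 for *Slco1a4* (adjusted p = 0.0988), -0.80 for *Slco1a1* (0.232) and 0.67 for *Slc13a3* (0.175). No transporter passed a test of genotype by age in edgeR (0.0135% of genes called). At an unadjusted p under 0.05 it was also 0 of 9, beside 478 of 14843 genes.

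**Figure D2:**
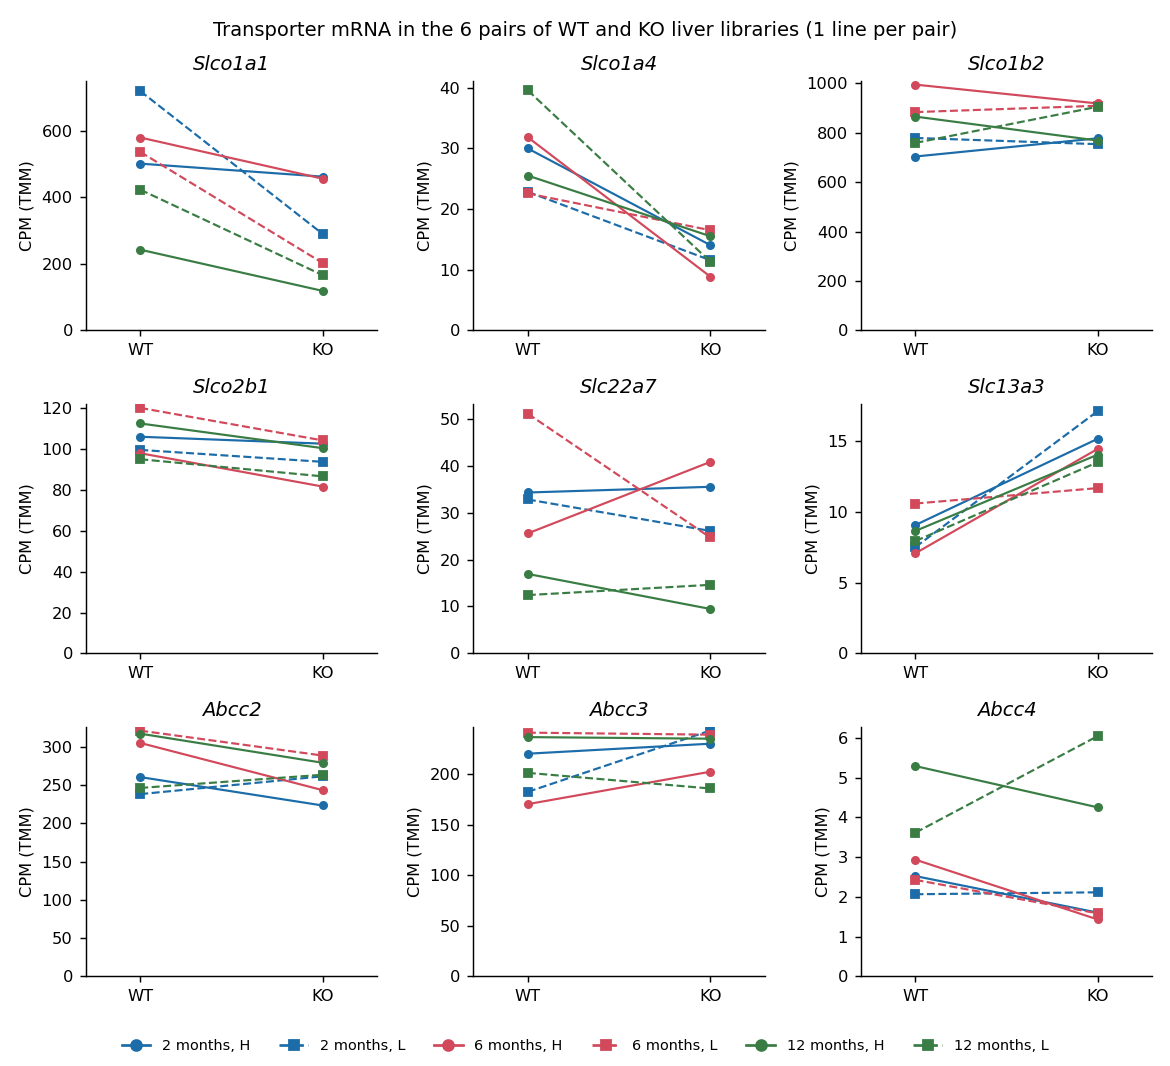
CPM of each transporter in the 6 WT and KO pairs; each line joins the WT and the KO library of 1 age and collection (circles and solid lines H, squares and dashed lines L). Every line falls for *Slco1a1*, *Slco1a4* and *Slco2b1* and rises for *Slc13a3*, and the lines of the other 5 run in both directions.

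Among related transporters, 1 of 13 other Slc22 carriers tested passed: *Slc22a3*, an organic cation transporter, was higher in KO (7.33 to 14.1 against 2.80 to 4.69 CPM; 1.26 log2, adjusted p = 0.00973). None passed among 2 other Slco carriers, 2 other Slc13 carriers, 5 other Abcc pumps, 14 further bile acid, cation and canalicular transporters or 10 xenobiotic and bile acid sensing receptors in edgeR. Of 10 target genes of those receptors 1 passed, the carboxylesterase *Ces2a* (-0.71, adjusted p = 0.00748). Of 8 male-biased liver genes 1 was lower in KO (*Serpina1e*, -2.28, adjusted p = 0.0373), and 0 of 9 female-biased genes passed.

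Markers of cell types and zones were read beside these results. The summed level of 8 hepatocyte markers was 44313.5 to 63623.2 CPM in KO and 72530 to 91710.6 in WT, without overlap, but only 2 of 8 were called lower (*Alb*, -0.89, adjusted p = 0.00748; *Apob*, -0.39, adjusted p = 0.0387), with a median of -0.17 log2 over the 8. Of 12 pericentral genes 3 were higher in KO, among them *Lhpp* (0.75, adjusted p = 0.0118) and *Glul* (0.43, adjusted p = 0.0154), and of 12 periportal genes 3 were lower, among them *Cyp2f2* (-0.49, adjusted p = 0.0142) and *Hsd17b13* (-0.59, adjusted p = 0.0154). The sum of 6 lymphocyte markers was higher in KO in 6 of 6 pairs (27.96 to 168 CPM, against 21.4 to 102 in WT), with 1 of 6 called, the immunoglobulin gene *Ighm* (1.05, adjusted p = 0.00748). The sum of 7 kidney tubule markers was also higher in KO in 6 of 6 pairs, from 2.86 to 4.99 CPM against 1.93 to 4.23 in WT; 5 of the 7 were at 0 in all 12 libraries, and the 1 that could be tested, *Lrp2*, did not pass (0.55, adjusted p = 0.108). Of 16 acute-phase genes 3 were lower, among them *Fgb* (-0.48, adjusted p = 0.0140) and *Fga* (-0.39, adjusted p = 0.0387), and 1 was higher, and of 5 cholangiocyte markers 1 was lower (*Sox9*, -1.52, adjusted p = 0.0312). The part of these shifts in the transporter results, that of *Slc13a3* included, was not tested.

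With age in the time course, *Slc13a3* and *Slc22a7* showed the largest changes of the 9. Each age was compared with the others over 6 libraries, with ZT as a block. From 2 to 6 months 5 of 9 transporters passed, against 13.6% of 13948 genes (6.83% higher, 6.73% lower); from 2 to 12 months 2 passed, against 11.7% (6.47% higher, 5.19% lower); and from 6 to 12 months 4 passed, against 16.1% (8.57% higher, 7.58% lower). These contrasts share libraries and are given side by side.

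*Slc13a3* was highest at 6 months. At ZT1, 5, 9, 13, 17 and 21 it stood at 5.34, 3.55, 4.46, 3.90, 4.46 and 3.97 CPM at 2 months, at 16.6, 13.1, 15.2, 11.7, 12.8 and 9.76 CPM at 6 months, and at 4.32, 2.65, 2.13, 2.17, 4.25 and 2.32 CPM at 12 months. All 6-month libraries lay above every library of the other ages. The fitted rise from 2 to 6 months was 1.61 ± 0.14 (log2, SE, adjusted p = 1.84e-06), and the mean of the 6 within-hour differences gave a fold of 3.07. From 6 to 12 months *Slc13a3* fell by 2.14 on the log2 scale (SE 0.14, adjusted p = 2.5e-07). At 12 months it had fallen by 0.53 on the log2 scale from 2 months (adjusted p = 0.0313), a call lost when ZT1, 5, 9, 13 or 21 was left out (adjusted p between 0.0548 and 0.0985) or the ZT block was dropped (0.117).

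*Slc22a7* stepped down with age in the time course. It stood at 58.9, 53.7, 39.6, 54.1, 57.8 and 53.5 CPM at 2 months, at 68.6, 27.3, 24.3, 29.8, 28.4 and 46.5 CPM at 6 months, and at 20.2, 26.6, 9.93, 14.9, 14.4 and 23.5 CPM at 12 months. The 12-month libraries lay below every 2-month library, and the 6-month libraries lay below the 2-month library of the same hour except at ZT1, where the level was the highest of all 18. The fitted change from 2 to 12 months was -1.58 ± 0.17 (log2, SE, adjusted p = 2.67e-05), and the mean of the 6 within-hour differences gave a fold of 0.330. From 6 to 12 months the fitted change was -0.99 (adjusted p = 0.00132). The fall from 2 to 6 months (-0.59, adjusted p = 0.0296) was lost without ZT9 (adjusted p = 0.0823), ZT13 (0.0980) or ZT17 (0.107) and without the ZT block (0.219).

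The canalicular pump *Abcc2* and the basolateral pump *Abcc3* were lower at 6 than at 2 months. *Abcc2* ran from 196 to 404 CPM at 2 months (median 271), from 119 to 234 at 6 months (median 176) and from 152 to 277 at 12 months (median 207). It was lower at 6 than at 2 months at 6 of 6 hours with overlapping groups (-0.67 ± 0.13, log2, SE; adjusted p = 0.00299). *Abcc3* ran from 58.5 to 97.8 CPM at 2 months (median 89.6), from 45.9 to 67.2 at 6 months (median 51.3) and from 76.8 to 102 at 12 months (median 92.4), so that the 6-month and 12-month libraries did not overlap. Its change was -0.62 ± 0.13 from 2 to 6 months (adjusted p = 0.00464) and 0.79 ± 0.13 from 6 to 12 months (log2, SE; adjusted p = 0.000689).

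Among the uptake carriers, *Slco1a1* ran from 826 to 1419 CPM at 2 months (median 1025), from 499 to 824 at 6 months (median 757) and from 671 to 1428 at 12 months (median 844). The 2-month and 6-month libraries did not overlap, and the change was -0.56 ± 0.14 (log2, SE; adjusted p = 0.0179), which was lost without ZT5 (adjusted p = 0.0593) or without the ZT block (0.0519). *Slco1a4* ran from 25.9 to 54.8 CPM at 2 months (median 28.5), from 14.2 to 49.1 at 6 months (median 24.4) and from 27.5 to 77.0 at 12 months (median 56.5), with overlap between all ages. It rose from 6 to 12 months (1.07, adjusted p = 0.00964), and from 2 to 12 months it was higher at 6 of 6 hours without passing (0.70, adjusted p = 0.0813).

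*Slco1b2*, *Slco2b1* and *Abcc4* passed no age contrast of the time course. The medians of *Slco1b2* were 1612, 1642 and 1551 CPM at 2, 6 and 12 months. *Slco2b1* was lower at 6 than at 2 months at 6 of 6 hours (-0.26, adjusted p = 0.132), and *Abcc4* was higher at 6 of 6 hours (0.52, adjusted p = 0.113) at levels of 1.18 to 4.56 CPM. Libraries of 2 and 6 months did not overlap for *Slc13a3* and *Slco1a1* (2 of 9; 4.65% of 12470 genes), libraries of 2 and 12 months for *Slc22a7* (1 of 9; 4.23%), and libraries of 6 and 12 months for *Slc13a3* and *Abcc3* (2 of 9; 4.58%).

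**Figure D3:**
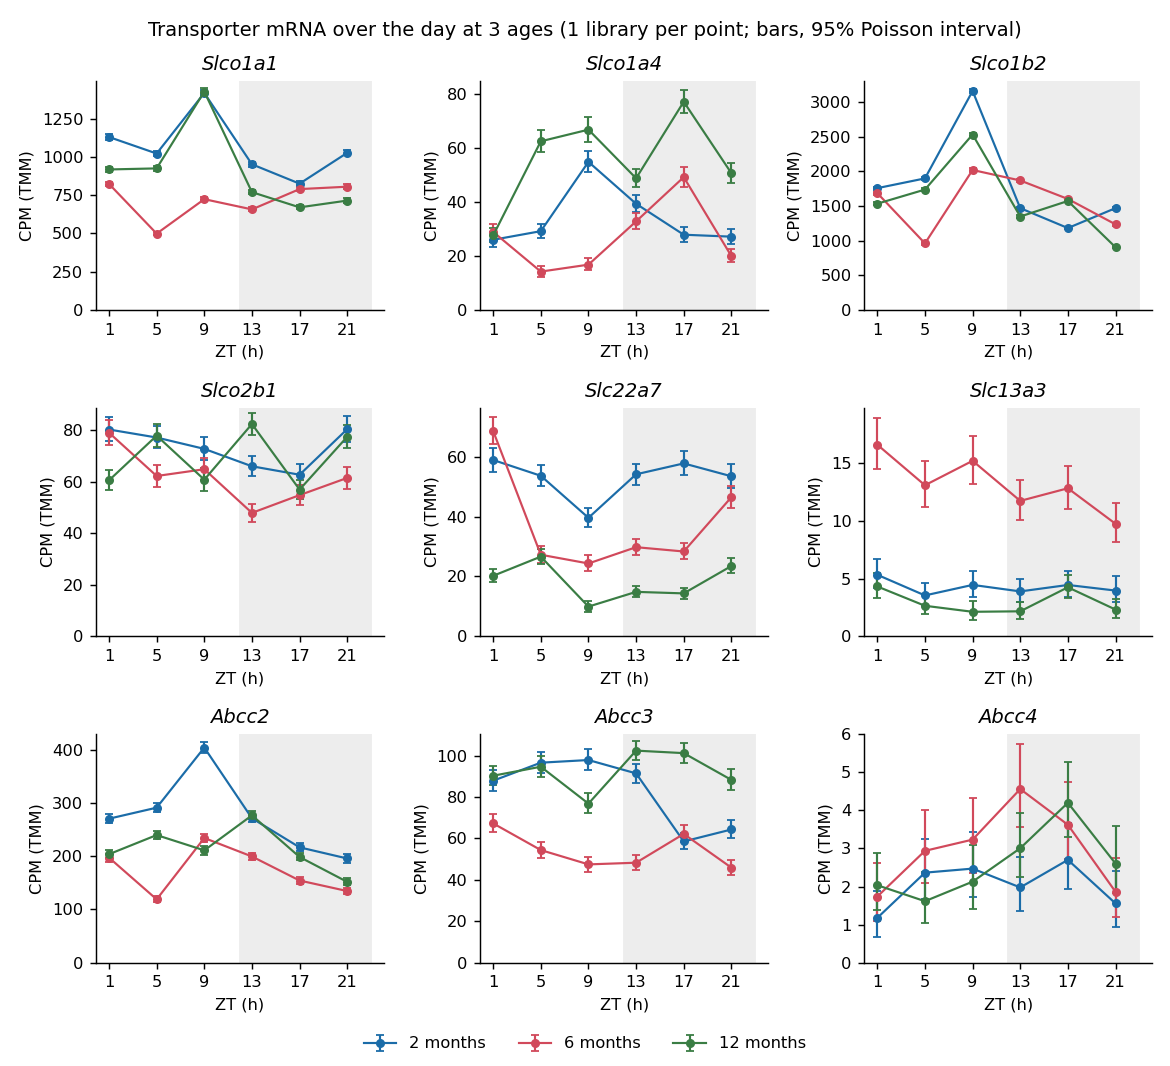
CPM of each transporter by ZT at 2, 6 and 12 months in the time course, 1 library per point, with 95% Poisson intervals that cover counting error only; grey marks the dark phase. The 6-month curve of *Slc13a3* lies above both others and the 12-month curve of *Slc22a7* lies lowest.

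The 6-month libraries of the time course stood apart in acute-phase genes, which the liver raises in inflammation. The sum of 16 such genes was 50765.9 to 147840 CPM at 6 months, against 15460 to 21184.6 at 2 months and 11640.9 to 24707.5 at 12 months. All 16 were higher at 6 than at 2 months (median 2.11 log2) and lower at 12 than at 6 months. Kupffer cell markers were higher too (5 of 8), and of the hepatocyte markers 2 of 8 were lower, *Cps1* (-0.83) and *Ass1* (-0.77). Both of these are also among the 12 periportal genes counted below. Cholangiocyte markers were higher in 3 of 4 tested, with sums of 37.5 to 145 CPM against 29.8 to 46.6 at 2 months. Of 12 periportal genes 7 were lower and 1 higher, of 12 pericentral genes 4 were higher and 1 lower, and of 4 erythroid genes 2 were higher. The kidney tubule gene *Lrp2*, the 1 of 7 such markers that could be tested, was higher as well (0.76, adjusted p = 0.0484), beside *Slc13a3*. The summed kidney markers overlapped, at 2.12 to 4.81 CPM at 6 months and 0.934 to 4.44 at 2 months. At 6 months 5 of the 7 were at 0 in every library. The genotype cohort, with acute-phase sums of 10509.7 to 18739.9 CPM, held no such libraries. The part of these shifts in the 6-month transporter results was not tested.

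**Figure D4:**
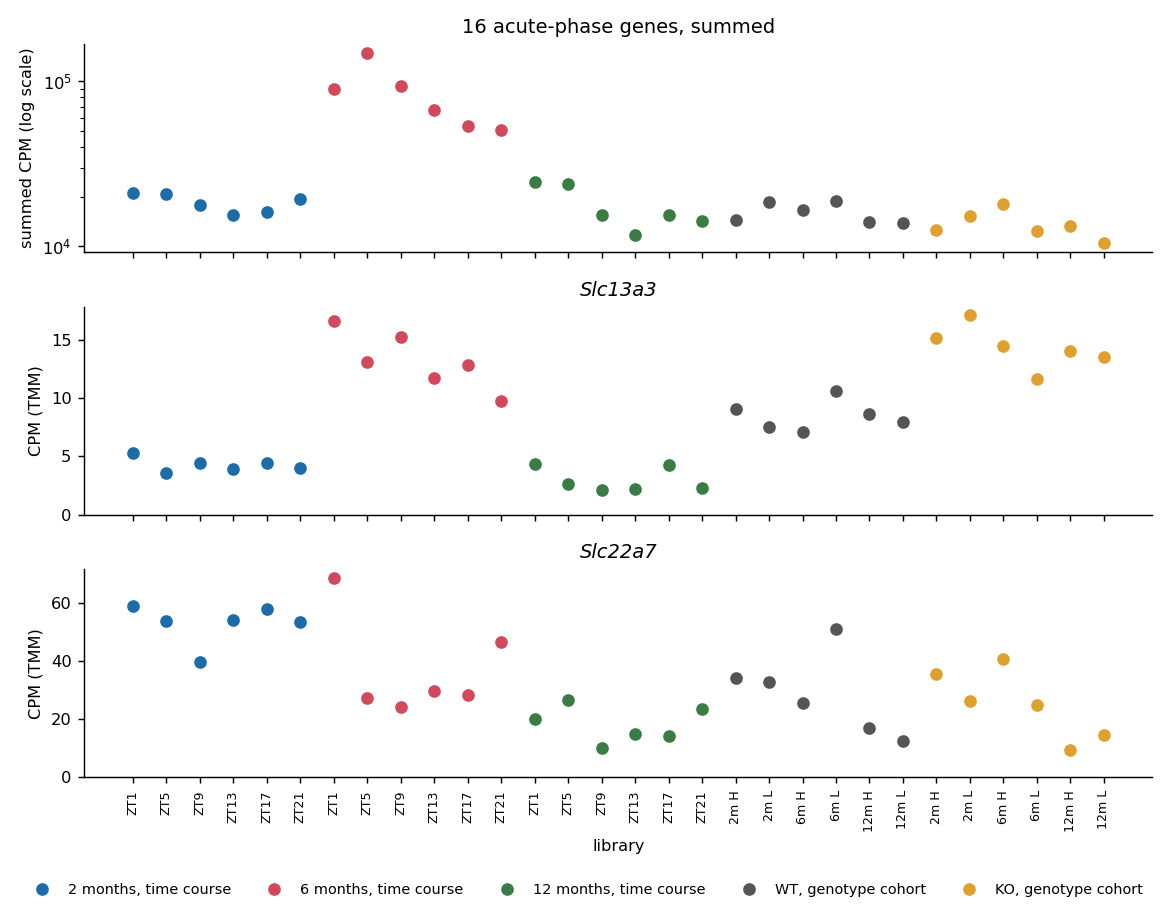
Summed CPM of 16 acute-phase genes (log axis) and CPM of *Slc13a3* and *Slc22a7* in each library, coloured by group, 1 point per library. The 6 libraries of the 6-month group in the time course sit between 50765.9 and 147840, above all other libraries.

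Other transporters also changed at 6 months. Of 14 further bile acid, cation and canalicular transporters 3 were higher and 6 lower than at 2 months, among them the bile acid carrier *Slc10a2* (1.58, adjusted p = 1.78e-05) and the drug efflux pump *Abcb1b* (1.85, adjusted p = 0.00014). Both other Slc13 carriers tested passed, the citrate carrier *Slc13a5* higher (3.71, adjusted p = 8.7e-05) and *Slc13a2* lower (-1.34, adjusted p = 0.00819). Of 13 other Slc22 carriers 2 were higher and 2 lower. From 2 to 12 months, *Slc22a27* (3.29, adjusted p = 2.7e-05) and *Slc22a29* (5.31, adjusted p = 8.03e-05) were the 2 of 13 that passed, both higher, while *Slc22a7* was lower. Of 8 male-biased liver genes 5 were lower at 12 than at 2 months and none higher.

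The genotype cohort offered a second set of ages, with 2 WT and 2 KO libraries each. From 2 to 12 months 3 of 9 transporters passed, against 11.7% of 14389 genes (5.15% higher, 6.52% lower). *Slc22a7* was again lower: 34.3 and 32.8 CPM in WT and 35.5 and 26.1 in KO at 2 months, against 16.9 and 12.4 in WT and 9.48 and 14.6 in KO at 12 months (H then L). These groups did not overlap, as was the case for 19.6% of 12707 genes, and the change was -1.26 ± 0.24 (log2, SE; adjusted p = 0.00752).

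*Abcc4* stood at 2.52 and 2.06 CPM in WT and 1.60 and 2.11 in KO at 2 months, and at 5.29 and 3.62 in WT and 4.25 and 6.05 in KO at 12 months. The groups did not overlap, as was the case for 19.6% of 12707 genes and, among the 9, otherwise only for *Slc22a7*. The rise was 1.24 ± 0.26 (log2, SE, adjusted p = 0.0114). *Slco1a1* was lower at 12 months in 4 of 4 sets of genotype and collection with overlapping groups (-1.11 ± 0.28, log2, SE; adjusted p = 0.0259). From 2 to 6 months 0 of 9 passed in edgeR (2.61% of genes did, 1.37% higher and 1.24% lower). An unadjusted p under 0.05 was seen for 2 of 9, *Slco1b2* (0.31, adjusted p = 0.106) and *Abcc2* (0.24, adjusted p = 0.277). It was also seen for 2535 of 14389 genes. Libraries of these ages did not overlap for *Slco1b2*, 1 of the 9, against 12.4% of genes. *Slc13a3*, the transporter with the largest 6-month difference in the time course, gave -0.11 ± 0.15 (log2, SE; adjusted p = 0.788) here. *Slc22a7*, lower at 6 than at 2 months in the time course, gave 0.15 ± 0.23 here (log2, SE, adjusted p = 0.834).

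WT libraries alone, 2 an age, gave -1.16 for *Slc22a7* (adjusted p = 0.273), 0.96 for *Abcc4* (0.325) and -0.88 for *Slco1a1* (0.264) from 2 to 12 months. The marker and list results that follow come from WT and KO libraries together, not from WT alone. At 12 months, 5 of 8 hepatocyte markers were lower and 1 higher than at 2 months. Of 12 periportal genes 5 were lower, and these lists share *Cps1* and *Ass1*. Of 8 male-biased genes 4 were lower and 1 higher. Of 19 core clock genes 7 were lower and 2 higher, among them *Per2* (-1.84, adjusted p = 0.000311) and *Tef* (-1.54, adjusted p = 0.00235), at collection hours that differed between these ages, and *Slc22a7* and *Abcc4* are among the transporters called for a daily rhythm below. Lymphocyte markers were higher in 3 of 6, with sums of 97.4 to 168 CPM against 21.4 to 40.3, and 2 of 6 stellate cell markers were higher. The part of these shifts and of the hour in the age changes was not tested.

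**Figure D5:**
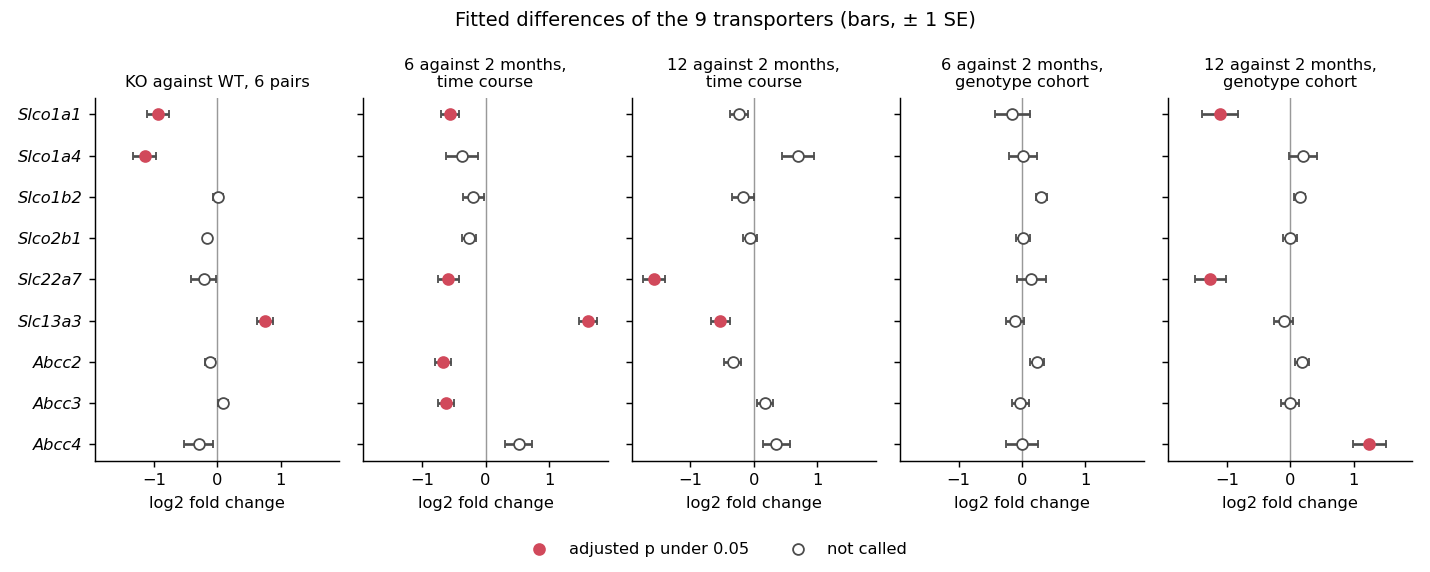
Fitted log2 differences of the 9 transporters with standard errors for the genotype comparison and for 6 and 12 against 2 months in the time course and the genotype cohort; filled points passed an adjusted p of 0.05 (edgeR). *Slc22a7* lies below 0 from 2 to 12 months in both cohorts, and *Slc13a3* is high in KO and at 6 months of the time course.

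A daily rhythm was fitted as 1 cosine curve of 24 h shared by the 3 ages of the time course. *Slc22a7*, *Abcc4* and *Abcc2* passed, 3 of 9 against 15.8% of 13733 genes, and 18 of 19 core clock genes passed the same test. *Slc22a7* had an amplitude of 0.42 log2 and a peak at ZT23.4 (adjusted p = 0.0226). Its level at ZT9 was -0.57 ± 0.20 log2 from its age mean (SD over 3 ages), the lowest of the 6 hours, and at ZT1 0.46 ± 0.45, the highest.

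*Abcc4* peaked at ZT13.6 with an amplitude of 0.47 log2 (adjusted p = 0.0312). It was lowest at ZT1 (-0.57 ± 0.25 log2 from the age mean, SD over 3 ages) and highest at ZT17 (0.53 ± 0.21). *Abcc2* peaked at ZT9.04 with an amplitude of 0.31 log2 (adjusted p = 0.0317), from 0.36 ± 0.31 at ZT9 to -0.41 ± 0.08 at ZT21. *Slco1b2* followed a like curve (amplitude 0.38 log2, peak ZT8.58) without passing (adjusted p = 0.0597), with 0.67 ± 0.23 at ZT9 and -0.43 ± 0.29 at ZT21. The other 5 had amplitudes of 0.078 to 0.37 log2 and did not pass.

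These rhythm calls were sensitive to single hours and ages. *Slc22a7* was lost without ZT1, 9, 17 or 21 or without the 6-month or 12-month libraries (adjusted p between 0.0519 and 0.183). *Abcc4* was lost without ZT1, 13, 17 or 21, without any 1 age (0.0707 to 0.213) and with no filter on low counts (0.0513), and *Abcc2* without ZT9, 13, 17 or 21 or without the 2-month or 12-month libraries (0.0908 to 0.3002). Without ZT5 or without the 6-month libraries *Slco1b2* passed (0.00630 and 0.0187).

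Within single ages, a JTK-like rank test gave exact permutation p-values, not adjusted over genes, whose smallest value with 6 libraries is 0.03333. That value was reached for *Abcc2* at 2 months (as by 8.68% of 12470 genes), and for *Abcc4* at 6 months (8.2%) and 12 months (6.44%). A cosine curve fitted per age in edgeR called 0 of the 9 at each age (4.72%, 4.62% and 3.53% of 14268 genes). No transporter passed a test for a change of rhythm in edgeR (0.105% of genes called from 2 to 6 months, 0% from 2 to 12 months). From 2 to 6 months 2 of 9 had an unadjusted p under 0.05, as did 1496 of 14268 genes. From 2 to 12 months 1 of 9 did, as did 657 of 14268 genes.

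Genes whose levels ran most like those of a transporter were named over all libraries of a cohort, as a description. Over the 12 libraries of the genotype cohort and 12707 genes, *Slco1a4* ran most like *Sytl1* (Pearson r = 0.936), *Pcyt2* (0.935) and *Smim22* (0.919), and *Slc13a3* most like *Plbd1* (0.930), *Elf4* (0.920) and *Dhx57* (0.919). Over the 18 libraries of the time course and 12470 genes, *Slc22a7* ran most like *Selenbp2* (0.919), *Trim14* (0.916) and *Rarres1* (0.914), and *Abcc4* most like *Cadps2* (0.852), *Gnb4* (0.851) and *Ptpn18* (0.839). The libraries share their genotype, age and hour with every gene, so that any gene that follows the same groups is alike by this measure.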

How the data were processed

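Whole-number read counts per gene were deposited by the authors in 1 table per cohort. The submitters' processing notes name fastp, HISAT2, featureCounts and mm10; versions, annotation and strand setting are not given in the sources used here. The members, gene lists and tests were chosen with earlier results of these data known. Genes kept by filterByExpr were fitted with edgeR 4.0.16 (R 4.3.3; TMM scaling, quasi-likelihood F-test, Benjamini-Hochberg adjustment over all genes tested, threshold 0.05). The designs were pair plus genotype, ZT plus age, genotype plus collection plus age, and age plus a 24 h cosine curve. The pair block rests on age and collection, which the labels give for each library. The study used littermates as controls, but whether the WT and KO library of a pair came from littermates is not given. FPKM used exon lengths of GENCODE M21, which matched 55144 and 53775 gene IDs. Exact permutation tests were computed over all orders or signs with NumPy 2.4.6, and Poisson intervals with SciPy 1.17.1. Counts of non-overlap used genes of mean CPM of at least 1. Likeness was Pearson's r of log2(CPM + 0.5), and the 3 highest genes were named for members chosen by the smallest p. Alternatives were DESeq2 1.42.0, limma-voom 3.58.1, other size factors, no filter, other blocks and left-out libraries. The fits were tested on simulated data. Named list genes were the 2 with the smallest p per list. 1 gene of these lists is not reported here.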

Additional observations from a re-analysis of the deposited data

Results flagged for a closer look

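In 3 of 45 groups of a transporter and an age or genotype, 1 library stood far from the others of its group, where the critical value used passes about 1 in 20 groups by chance when their values come from 1 normal distribution; these groups mix hours or ages. All 3 were ZT9 libraries of the time course. *Slco1a1* stood at 1428 CPM at ZT9 among the 12-month libraries, *Slco1b2* at 3157 CPM at ZT9 among the 2-month libraries, and *Slc22a7* at 39.6 CPM at ZT9 among the 2-month libraries, the last below the others.

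The differences of *Abcc2* with age ran in opposite directions in the cohorts: from 2 to 6 months it was lower at 6 of 6 hours of the time course and higher in 4 of 4 sets of the genotype cohort, and the mean log2 changes differed by -0.90 (time course minus genotype cohort). This difference between cohorts was not tested. *Abcc3* was higher in KO in both 2-month pairs. It was lower in the 12-month L pair (186 in KO against 201 CPM in WT) and nearly equal in the 12-month H pair (235 against 237 CPM). The mean log2 differences were 0.30 apart (2 minus 12 months). This contrast of 2 ages was not tested by itself, and genotype by age over the 3 ages did not pass for *Abcc3* in edgeR.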

How the results depend on the processing

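The genotype comparison called 3 of the 9 with 202 genes, and the same 3 passed with DESeq2, limma-voom, other size factors and no filter. Without the replicate block 2 of the 9 passed (21 genes with genotype alone, 39 with age and collection as terms, and *Slco1a1* lost). Leaving out 1 pair at a time gave 0 to 2 of the 9 and 45 to 137 genes. Unfiltered counts called 636 genes and DESeq2 430. H pairs alone called 0 of the 9 and 2 genes, L pairs alone 1 and 54, and the 4 pairs with less *Egr-1* in KO called 0 and 9. Uncalled differences near 0 changed sign: *Slco1b2* was -0.052 and *Slc22a7* 0.0043 in H pairs, *Abcc2* 0.0099 and *Abcc4* 0.087 in L pairs, and *Slco1b2* ranged from -0.032 to 0.051 with 1 pair left out.

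In the time course, 6 against 2 months gave 1059 genes and 3 of the 9 with no ZT block, 840 genes without ZT1 and ZT5 (left out after seeing the data, for the high *Saa1* of those 12-month libraries), and 1196 to 1597 genes and 4 to 5 of the 9 with 1 hour left out. For 12 against 2 months these were 997 genes and 1 of the 9, 895 genes and 1, and 955 to 1357 genes and 1 to 2, and unfiltered counts called 4 of the 9. For 12 against 6 months they were 1418 genes, 924 genes, and 1286 to 2365 genes with 4 of the 9, and *Slco1b2* changed sign (-0.0022 unfiltered, -0.14 without ZT1 and ZT5, and from -0.13 to 0.12 with 1 hour left out). WT libraries alone called 29 genes and 0 of the 9 for 12 against 2 months and 0 genes for 6 against 2 months. There, *Slco2b1* (0.033), *Slc13a3* (0.018) and *Abcc3* (0.14) changed sign at 12 months, and *Slc13a3* (0.070), *Abcc3* (0.023) and *Abcc4* (0.22) at 6 months. The shared rhythm gave 1228 to 1835 genes and 0 to 4 of the 9 with 1 hour left out, and 754 to 1777 genes and 0 to 2 with 1 age left out. In each age the edgeR curve called 0 of the 9 at an adjusted p under 0.05. The exact test called 1 at its smallest unadjusted p, so the thresholds differ. Causes of these shifts were not tested.

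With 1 library per age and hour, biological spread is read across hours and pairs. Depth limits *Abcc4*, *Slc13a3* and *Egr-1*, which had the fewest counts.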
